A study of Mus musculus with 12 samples.

Results

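The genes described here encode the machinery of mitosis and chromosome segregation. They were taken as a list of 45 gene symbols, and 43 of them were measured among the 22180 genes tested, each through its brightest array row on average. Ccnb1 and Ncapg had no row of their own and were not analysed here. By role, the measured genes were 8 kinases, cyclins and regulators of mitotic entry, 4 subunits of the chromosomal passenger complex, 10 genes of the centromere, kinetochore and spindle checkpoint, 9 spindle motors and microtubule-associated proteins, 6 genes of the central spindle and cytokinesis, 3 genes of anaphase onset and mitotic degradation, and 3 genes of chromosome structure.

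A cell that leaves rest copies its DNA and then builds these proteins late in the cycle, mostly in G2 phase and mitosis. Cyclin-dependent kinase 1 with A- and B-type cyclins starts mitosis, Polo-like and Aurora kinases mature the spindle, the checkpoint holds the cell until every kinetochore is attached, and separase and the anaphase-promoting complex then let the chromatids part. Resting T cells express most of these genes weakly, and stimulation through the T cell receptor with costimulation is the classical way to make them divide.

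RNA came from CD4+ T cells of the spleen of 8-week-old Foxp3.eGFP mice on the C57BL/6 background, in which green fluorescent protein reports Foxp3, the lineage factor of regulatory T (Treg) cells. All 6 groups share this genotype, and each has 2 arrays (Affymetrix Mouse Gene 2.0 ST), called replicates B and 1. Control cells were fresh, and the others were total CD4+ cells kept for 3 days either with antibodies to CD3 and CD28 (2 µg/ml of each), which engage the T cell receptor and its costimulator, or with the soluble ligands OX40L (5 µg/ml) and JAG1 (1 µg/ml) of OX40 and Notch. Foxp3+ Treg and Foxp3- effector (Teff) cells were sorted afterwards, so both cell types of a culture had been stimulated together. The series asks how Treg expansion through the T cell receptor compares with expansion without it. As control cells were never cultured, an effect of culture and an effect of treatment cannot be told apart against them. The labels do not tell whether the replicates are separate animals or cultures, so p-values measure the spread between these samples only, which may be technical.

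Levels are the deposited log2 intensities, in which 1 unit is a doubling, and differences are given with their standard error (SE) and a Benjamini-Hochberg adjusted p over all genes, with a threshold of 0.05. Foxp3 separated the sorted populations, at a mean of 10.37 to 11.12 in the 3 Treg groups and 5.65 to 6.58 in the 3 Teff groups. The OX40L-JAG1 Teff arrays stood apart: the median SD between replicates over the 43 genes was 0.378 there, against 0.0534 to 0.153 in the other groups, and their mean level over 9 T cell identity markers was 8.84 to 9.52, against 10.02 to 10.80 in the other 10 arrays. Their levels also covered a narrower range. The SD over all genes was 1.49 on replicate B and 1.71 on replicate 1, against 1.947 to 2.188 on the other 10 arrays. The correlation between these replicates was 0.881, against 0.984 to 0.994 in the other groups. The part of the narrower range in the differences below was not tested. The spread between replicates enters the test of every comparison, so counts without those arrays are given where they differ. The SE pools the spread of all 6 groups, so it is probably too small in comparisons with OX40L-JAG1 Teff cells. Means under 4.87, the lowest of the array medians, were not shown to be above background, which applied to Cdc25c in the control and OX40L-JAG1 groups, Birc5 in control and OX40L-JAG1 Teff cells, and Kif4, Hmmr and Anln in OX40L-JAG1 Teff cells. Changes to or from those means are lower bounds.

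Mitotic genes as a group were highest in cells that had received anti-CD3 and anti-CD28. In anti-CD3-CD28 Treg cells all 43 genes were higher than in control Treg cells, by a median of 2.37 on the log2 scale (5.17-fold), from 1.41 ± 0.26 for Incenp to 3.51 ± 0.31 for Bub1, the checkpoint kinase, with adjusted p from 6.06e-06 to 0.0251. Of all genes tested, 8.08% were higher in that comparison, with a median change of -0.05. In anti-CD3-CD28 Teff cells 41 of the 43 genes were higher than in control Teff cells, by a median of 1.71 (3.28-fold), from 0.95 ± 0.19 for the kinase Plk1 to 2.91 ± 0.33 for Birc5 (survivin), against 5.44% of all genes. The other 2 were Ccnb2 (1.30 ± 0.42, adjusted p = 0.062) and Cenpa (0.97 ± 0.31, adjusted p = 0.057), and both passed once the OX40L-JAG1 Teff arrays were left out (28.9% of all genes then passed in either direction). Of 15 myeloid and dendritic cell markers, 0 were higher and 1 lower in anti-CD3-CD28 Treg cells, and 1 was higher and 3 lower in anti-CD3-CD28 Teff cells. Among erythroid and platelet markers 3 of 10 were higher in Treg and 4 of 10 in Teff cells, and among CD8 T and NK cell markers 2 of 9 in each. The median change over a list did not follow these counts in Teff cells. For erythroid and platelet markers it was 0.08 to 0.26 on the Treg and -0.33 on the Teff arrays. For CD8 T and NK cell markers it was 0.18 to 0.31 and -0.25 to -0.10. The part of these other cells was not tested. In sorted bulk RNA, a larger share of dividing cells and more transcript per dividing cell cannot be told apart.

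The order of the group means was nearly the same from gene to gene. Anti-CD3-CD28 Treg cells had the highest mean for 41 of the 43 genes, the exceptions being Cdk1 and Birc5, which were highest in anti-CD3-CD28 Teff cells. The differences between those 2 groups were within their error for both exceptions (Cdk1 -0.09 ± 0.47, adjusted p = 0.927, and Birc5 -0.32 ± 0.33, adjusted p = 0.563, Treg minus Teff). Anti-CD3-CD28 Teff cells were in the second place for 40 genes and OX40L-JAG1 Treg cells in the third for 41. OX40L-JAG1 Teff cells had the lowest mean for 32 genes, control Teff cells for 8 and control Treg cells for 3, an order at the low end that rests on the arrays that stood apart.

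**Figure D1:**
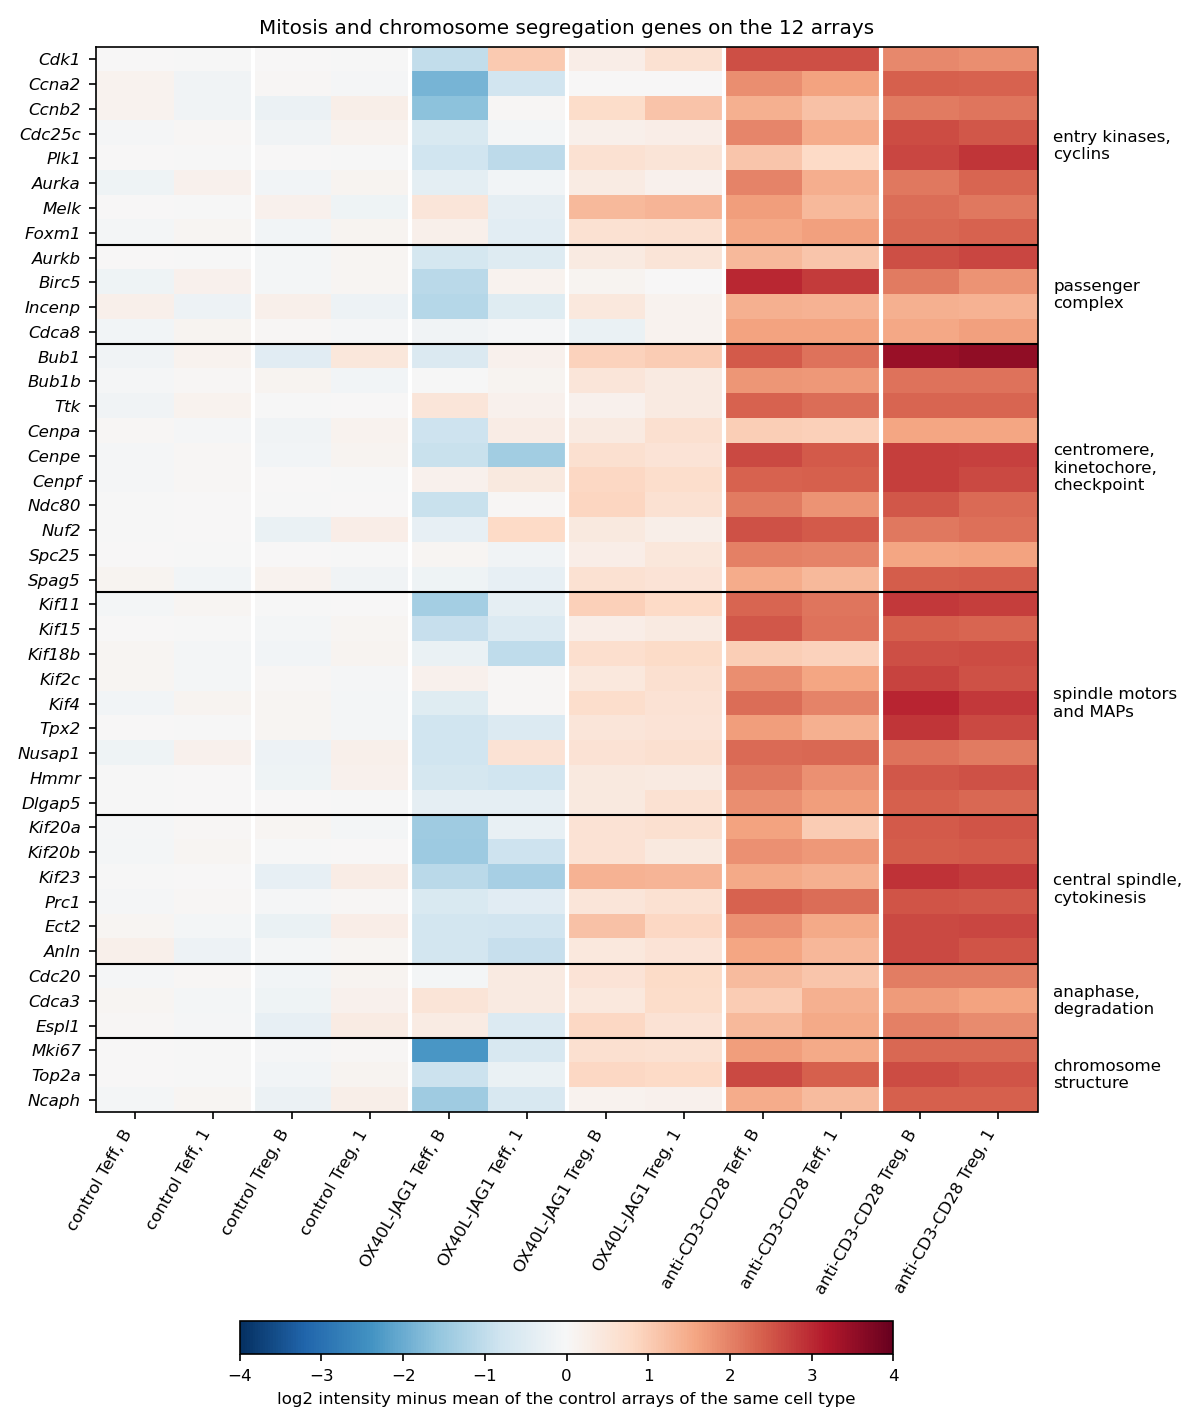
Level of each of the 43 genes on each of the 12 arrays as log2 intensity minus the mean of the 2 control arrays of the same cell type, with genes in rows ordered by role and arrays in columns. All 4 anti-CD3-CD28 columns are red for every gene, the OX40L-JAG1 Treg columns are pale red for most, and the OX40L-JAG1 Teff columns are mixed and differ between replicates (after quantile normalization the mean OX40L-JAG1 Teff change turned sign for 8 of the 43 genes).

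The promoters of the listed genes were examined for the 2 short motifs best known from late cell cycle genes. These sequences do not depend on the levels measured here. TTTGAA is the common form of the CHR, the cell cycle genes homology region, through which the DREAM and B-Myb complexes act, and CCAAT is the box that binds NF-Y. Promoters from 250 bases before to 50 bases after the start were available for 37 of the 45 listed genes (39 promoters, RefSeq, build GRCm38.p6), and not for Foxm1, Aurkb, Ccna2, Kif20a, Tpx2, Dlgap5, Incenp and Cdc25c. The sequences of Mki67 (chr7:135716330-135716629, minus strand), Top2a (chr11:99024140-99024439, minus strand), Cdk1 (chr10:69352863-69353162, minus strand) and Plk1 (chr7:122159185-122159484, plus strand) are shown because each holds both motifs and each gene is described array by array. They run 5′ to 3′ on the gene's strand, and capitals mark TTTGAA or CCAAT on either strand, the other strand reading TTCAAA or ATTGG.
Mki67: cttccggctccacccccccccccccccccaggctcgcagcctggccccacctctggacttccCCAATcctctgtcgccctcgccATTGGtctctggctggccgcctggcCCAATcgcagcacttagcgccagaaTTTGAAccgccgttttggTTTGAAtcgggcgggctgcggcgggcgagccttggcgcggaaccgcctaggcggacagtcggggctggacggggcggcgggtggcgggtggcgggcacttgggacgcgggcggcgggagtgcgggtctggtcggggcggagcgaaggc
Top2a: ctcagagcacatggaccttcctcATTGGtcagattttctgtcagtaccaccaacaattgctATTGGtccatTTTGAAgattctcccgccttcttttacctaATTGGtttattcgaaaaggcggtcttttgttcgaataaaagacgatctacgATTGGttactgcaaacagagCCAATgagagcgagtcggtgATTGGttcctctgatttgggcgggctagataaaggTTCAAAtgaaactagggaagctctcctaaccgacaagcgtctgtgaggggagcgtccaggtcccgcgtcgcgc
Cdk1: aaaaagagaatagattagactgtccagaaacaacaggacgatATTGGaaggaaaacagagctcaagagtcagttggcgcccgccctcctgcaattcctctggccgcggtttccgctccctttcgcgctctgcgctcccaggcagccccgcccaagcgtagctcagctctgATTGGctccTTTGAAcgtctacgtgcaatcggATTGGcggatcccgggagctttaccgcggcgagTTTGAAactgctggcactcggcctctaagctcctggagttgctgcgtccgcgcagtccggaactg
Plk1: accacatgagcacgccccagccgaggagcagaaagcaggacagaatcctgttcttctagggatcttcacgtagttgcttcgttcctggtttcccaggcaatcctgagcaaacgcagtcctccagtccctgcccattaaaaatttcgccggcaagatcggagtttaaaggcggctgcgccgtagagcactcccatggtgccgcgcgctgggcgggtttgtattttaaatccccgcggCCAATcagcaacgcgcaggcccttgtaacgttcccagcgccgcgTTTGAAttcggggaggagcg

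TTTGAA stood in 31 of the 39 promoters (79.5%), against 17.9% of the 32851 promoters in the same table. CCAAT stood in 74.4%, against 37.4%, and both motifs in 66.7%, against 6.95%. In the narrower window from 100 bases before to 50 after the start, TTTGAA stood in 76.9% against 8.01% and CCAAT in 66.7% against 23.4%. By position, 31 of the 40 TTTGAA matches lay within 50 bases on either side of the start, and 54 of the 64 CCAAT matches lay in the 150 bases before it. Positions were not counted over all promoters, so these places were not shown to be particular to the listed genes. Ect2 and Prc1 each have 2 overlapping promoters that share sites, so the 40 and 64 matches are 37 and 60 distinct sites. By gene, 29 of the 37 had TTTGAA. One pair of matches shared a base. Plk1 shows this arrangement, with CCAAT just before and TTTGAA just after the start, whereas the Mki67 matches all lie farther upstream. Holding TTTGAA did not go with a uniformly larger response among the measured genes. The median change in anti-CD3-CD28 Treg cells was 2.40 for the 28 genes with it and 2.16 for the 7 without, while in anti-CD3-CD28 Teff cells it was 1.71 with and 2.32 without. These are descriptions of sequence, with no test.

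Among the genes of mitotic entry, all 8 were higher in anti-CD3-CD28 Treg cells (median 2.27) and 7 of 8 in anti-CD3-CD28 Teff cells (median 1.66). Cdk1, the kinase that drives entry, had levels on replicates B and 1 of 6.45 and 6.42 in control Teff, 7.06 and 7.01 in control Treg, 5.45 and 7.50 in OX40L-JAG1 Teff, 7.31 and 7.64 in OX40L-JAG1 Treg, 9.02 and 9.02 in anti-CD3-CD28 Teff and 8.96 and 8.90 in anti-CD3-CD28 Treg cells. The 4 anti-CD3-CD28 arrays lay above all others, and the OX40L-JAG1 Teff replicates were on both sides of control. The rise was 2.58 ± 0.47 in Teff (adjusted p = 0.00339) and 1.90 ± 0.47 in Treg cells (adjusted p = 0.0251), and the latter was among the 3 that did not pass after quantile normalization.

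Plk1, the Polo-like kinase of centrosome maturation and mitotic exit, differed between the cell types. Its levels were 6.92 and 6.86 in control Teff, 6.84 and 6.80 in control Treg, 6.08 and 5.84 in OX40L-JAG1 Teff, 7.45 and 7.35 in OX40L-JAG1 Treg, 8.00 and 7.68 in anti-CD3-CD28 Teff and 9.49 and 9.68 in anti-CD3-CD28 Treg cells. The anti-CD3-CD28 Treg arrays alone exceeded 9. Anti-CD3-CD28 raised it by 2.76 ± 0.19 in Treg cells (adjusted p = 7.54e-06) and by 0.95 ± 0.19 in Teff cells (adjusted p = 0.00547), the smallest Teff rise of the 43 genes.

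Foxm1, the transcription factor of the G2 and M phase program, had levels of 5.35 and 5.49 in control Teff, 5.50 and 5.73 in control Treg, 5.62 and 5.01 in OX40L-JAG1 Teff, 6.22 and 6.25 in OX40L-JAG1 Treg, 6.96 and 7.08 in anti-CD3-CD28 Teff and 7.91 and 7.97 in anti-CD3-CD28 Treg cells. The groups did not overlap from OX40L-JAG1 Treg cells upward. It rose by 2.32 ± 0.22 in Treg (adjusted p = 4.4e-05) and 1.60 ± 0.22 in Teff cells (adjusted p = 0.000607) with anti-CD3-CD28. Cdc25c, a phosphatase that activates Cdk1, was near background in 4 groups: 4.74 and 4.83 in control Teff, 4.49 and 4.77 in control Treg, 4.16 and 4.70 in OX40L-JAG1 Teff and 4.83 and 4.89 in OX40L-JAG1 Treg cells. It was clearly present in the other 2, at 6.74 and 6.26 in anti-CD3-CD28 Teff and 7.24 and 7.12 in anti-CD3-CD28 Treg cells. Its rises of 2.55 ± 0.23 in Treg (adjusted p = 3.73e-05) and 1.71 ± 0.23 in Teff cells (adjusted p = 0.000607) are therefore lower bounds. The cyclins Ccna2 and Ccnb2, the spindle-pole kinase Aurka and the kinase Melk completed the role, with rises of 2.12 to 2.37 in anti-CD3-CD28 Treg cells.

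The chromosomal passenger complex, which corrects faulty kinetochore attachments and later acts at the midzone, had all 4 subunits higher with anti-CD3-CD28 in Treg cells (median 1.77) and in Teff cells (median 1.50). Its kinase Aurkb had levels of 6.72 and 6.72 in control Teff, 6.47 and 6.63 in control Treg, 6.00 and 6.21 in OX40L-JAG1 Teff, 6.90 and 7.06 in OX40L-JAG1 Treg, 8.03 and 7.81 in anti-CD3-CD28 Teff and 9.14 and 9.23 in anti-CD3-CD28 Treg cells. The Treg arrays were the higher ones within each culture. Its rise with anti-CD3-CD28 was 2.64 ± 0.18 in Treg (adjusted p = 7.79e-06) and 1.20 ± 0.18 in Teff cells (adjusted p = 0.00114).

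Birc5 encodes survivin, the subunit that targets the complex to the centromere. Its levels were 4.50 and 4.84 in control Teff, 5.25 and 5.38 in control Treg, 3.60 and 4.82 in OX40L-JAG1 Teff, 5.43 and 5.34 in OX40L-JAG1 Treg, 7.70 and 7.46 in anti-CD3-CD28 Teff and 7.39 and 7.12 in anti-CD3-CD28 Treg cells. Both anti-CD3-CD28 Teff arrays lay just above both anti-CD3-CD28 Treg arrays, and control Teff cells were below the background bound. It rose by 1.95 ± 0.33 in Treg cells (adjusted p = 0.0025) and by at least 2.91 ± 0.33 in Teff cells (adjusted p = 0.000179). Incenp, the scaffold, and Cdca8 (borealin) rose by nearly equal amounts in both cell types: Incenp by 1.41 ± 0.26 in Treg and 1.40 ± 0.26 in Teff cells, and Cdca8 by 1.60 ± 0.19 in each. The call for Incenp in Treg cells was lost after quantile normalization.

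All 10 centromere, kinetochore and checkpoint genes were higher in anti-CD3-CD28 Treg cells (median 2.35) and 9 of 10 in anti-CD3-CD28 Teff cells (median 2.15), the highest role median in Teff cells. Bub1, a checkpoint kinase at unattached kinetochores, had levels of 5.44 and 5.71 in control Teff, 4.86 and 5.77 in control Treg, 5.00 and 5.75 in OX40L-JAG1 Teff, 6.25 and 6.33 in OX40L-JAG1 Treg, 8.04 and 7.75 in anti-CD3-CD28 Teff and 8.78 and 8.87 in anti-CD3-CD28 Treg cells. Its control Treg replicates differed by more than most, and the anti-CD3-CD28 arrays stood far above either. The rise was 3.51 ± 0.31 (11.4-fold, adjusted p = 3.13e-05) in Treg cells, the largest of the 43 genes, and 2.32 ± 0.31 (adjusted p = 0.000569) in Teff cells. Its partner Bub1b (BubR1), the checkpoint kinase Ttk (Mps1), the motor Cenpe, the matrix protein Cenpf, the Ndc80 complex subunits Ndc80, Nuf2 and Spc25, and Spag5 (astrin) rose by 1.59 to 2.76 in Treg and by 1.39 to 2.54 in Teff cells. Cenpa, the centromeric histone, and Spc25 had the smallest Treg rises of the role, 1.59 ± 0.31 and 1.59 ± 0.17.

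The 9 spindle motors and microtubule-associated proteins had the highest role median in anti-CD3-CD28 Treg cells, 2.58, against 1.97 in anti-CD3-CD28 Teff cells, and every gene passed in both. After quantile normalization Nusap1 did not pass in Treg (1.72, adjusted p = 0.0816) and Kif18b did not in Teff cells (1.07, adjusted p = 0.09). Kif11 (Eg5), the motor that pushes spindle poles apart, had levels of 6.86 and 7.00 in control Teff, 7.20 and 7.23 in control Treg, 5.57 and 6.58 in OX40L-JAG1 Teff, 8.17 and 8.00 in OX40L-JAG1 Treg, 9.27 and 9.06 in anti-CD3-CD28 Teff and 10.04 and 9.97 in anti-CD3-CD28 Treg cells. No group above control overlapped another. The rise was 2.79 ± 0.28 in Treg (adjusted p = 6.73e-05) and 2.23 ± 0.28 in Teff cells (adjusted p = 0.000339). Kif4, the chromokinesin, rose by 2.94 ± 0.22 in Treg cells, and Kif18b, which shortens astral microtubules, showed a small Teff rise of 0.96 ± 0.24 beside 2.58 ± 0.24 in Treg cells. Kif15, Kif2c, Tpx2, Nusap1, Hmmr and Dlgap5 made up the rest, with Treg rises from 2.13 to 2.74.

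The 6 genes of the central spindle and cytokinesis rose within a narrow range in anti-CD3-CD28 Treg cells, 2.44 to 2.84 (median 2.53), and less evenly in Teff cells, 1.30 to 2.30 (median 1.57). They are the kinesins Kif20a, Kif20b and Kif23, the microtubule bundler Prc1, the RhoA exchange factor Ect2 and the contractile ring protein Anln (anillin). After quantile normalization Kif20a did not pass in Teff cells (1.44, adjusted p = 0.0629). Kif23, the motor subunit of centralspindlin, had levels of 6.31 and 6.36 in control Teff, 5.82 and 6.45 in control Treg, 5.24 and 5.02 in OX40L-JAG1 Teff, 7.53 and 7.50 in OX40L-JAG1 Treg, 7.85 and 7.75 in anti-CD3-CD28 Teff and 9.01 and 8.93 in anti-CD3-CD28 Treg cells. OX40L-JAG1 Treg cells thus lay nearer to anti-CD3-CD28 Teff cells than to control Treg cells for this gene.

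Anaphase genes had the lowest role median in anti-CD3-CD28 Teff cells, 1.21. Cdc20, which activates the anaphase-promoting complex, Cdca3, which helps degrade the Cdk1 inhibitor Wee1, and Espl1 (separase), which cuts cohesin, had Treg rises of 1.66 to 2.06 and Teff rises of 1.19 to 1.41 with anti-CD3-CD28. Of chromosome structure, Ncaph is a condensin subunit, Top2a the topoisomerase that untangles sister DNA, and Mki67 encodes Ki-67, the coat of mitotic chromosomes and the usual marker of cycling cells. Mki67 had levels of 8.47 and 8.47 in control Teff, 8.75 and 8.86 in control Treg, 6.16 and 7.84 in OX40L-JAG1 Teff, 9.46 and 9.41 in OX40L-JAG1 Treg, 10.14 and 9.99 in anti-CD3-CD28 Teff and 11.11 and 11.09 in anti-CD3-CD28 Treg cells. No groups overlapped, although the OX40L-JAG1 Teff replicates lay far from each other. It rose by 2.30 ± 0.39 in Treg (adjusted p = 0.00288) and 1.60 ± 0.39 in Teff cells (adjusted p = 0.0179) with anti-CD3-CD28.

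Top2a had levels of 7.44 and 7.43 in control Teff, 7.77 and 7.96 in control Treg, 6.57 and 7.18 in OX40L-JAG1 Teff, 8.68 and 8.66 in OX40L-JAG1 Treg, 10.06 and 9.84 in anti-CD3-CD28 Teff and 10.49 and 10.37 in anti-CD3-CD28 Treg cells. Its response was nearly the same in both cell types. The rises were 2.56 ± 0.22 in Treg (adjusted p = 2.36e-05) and 2.52 ± 0.22 in Teff cells (adjusted p = 3.29e-05).

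**Figure D2:**
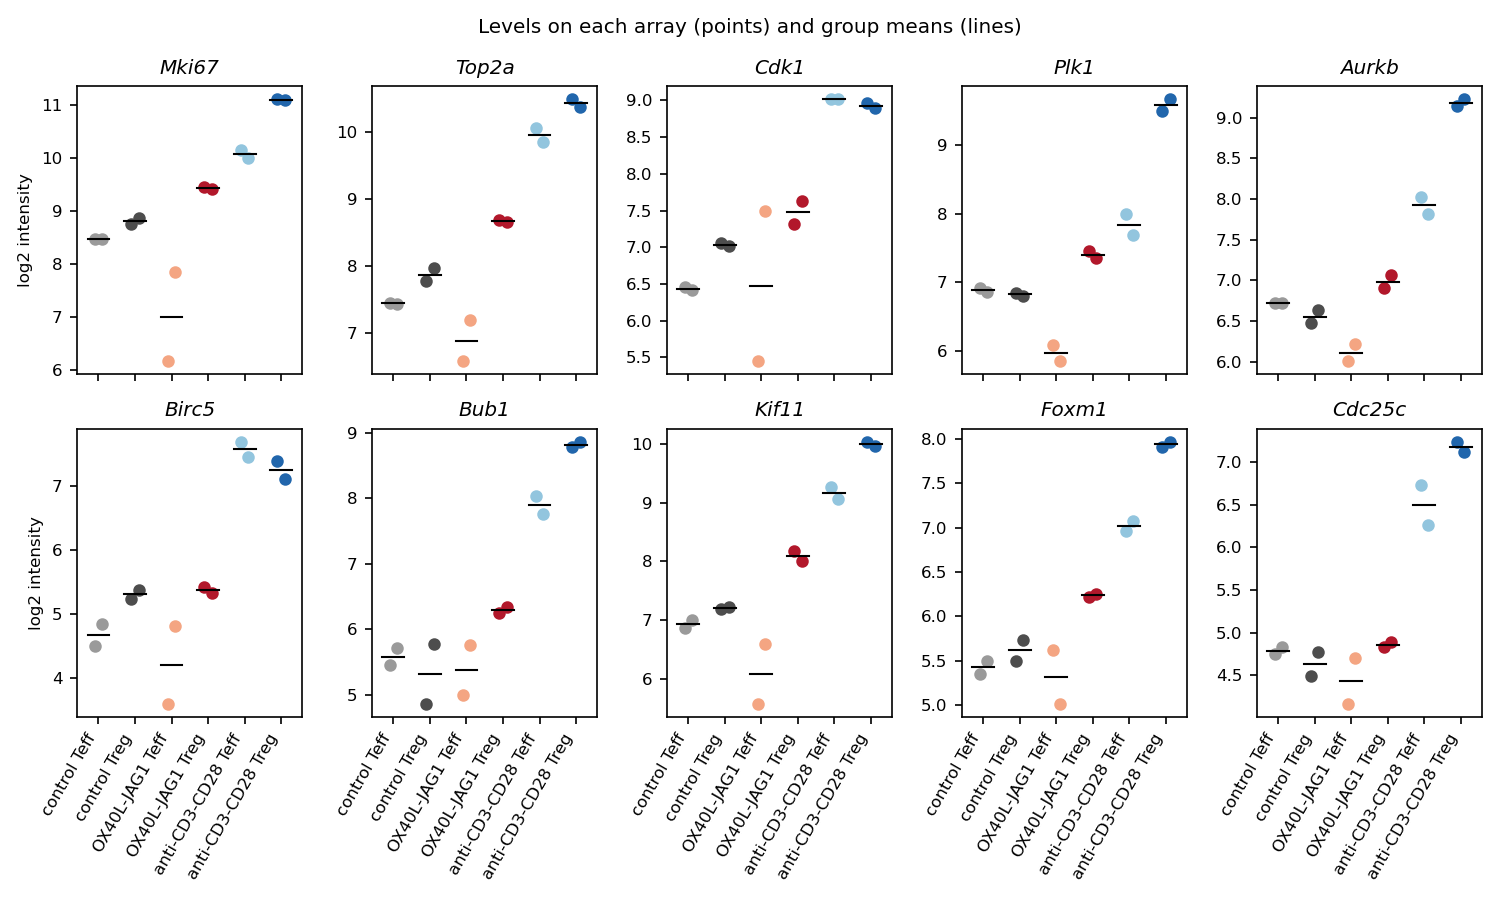
Log2 intensity of 10 of the genes on each array (points) with the mean of each group of 2 arrays (lines), each gene on its own axis. Anti-CD3-CD28 groups are highest for every gene shown, and Plk1, Aurkb and Bub1 have higher Treg than Teff points there while Cdk1 and Birc5 do not.

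Mitotic genes stood slightly higher in OX40L-JAG1 Treg than in control Treg cells, and few single changes passed the test. The change against control Treg cells was positive for 42 of the 43 genes, with a median of 0.56 (1.47-fold) and a range from -0.06 for Cdca8 to 1.38 for Kif23, where the median over all genes was -0.01 (1 of the 43 turned sign after quantile normalization). Both OX40L-JAG1 arrays lay above both control arrays for 37 of the 43 genes, which was so for 23.2% of all genes. In limma 2 genes passed, against 0.996% of all genes that were higher: Kif23 by 1.38 ± 0.22 (adjusted p = 0.00789) and Melk by 1.33 ± 0.26 (adjusted p = 0.0307). Before adjustment, 26 had p under 0.05 in limma, all higher. The share of all genes at that unadjusted p was not counted, so this number has no background to be read against.

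Melk is a kinase of proliferating cells that phosphorylates mitotic regulators. Its levels were 5.44 and 5.43 in control Teff, 6.32 and 6.00 in control Treg, 5.90 and 5.07 in OX40L-JAG1 Teff, 7.46 and 7.53 in OX40L-JAG1 Treg, 7.10 and 6.74 in anti-CD3-CD28 Teff and 8.39 and 8.26 in anti-CD3-CD28 Treg cells. Of the 43 genes it was the only one with a higher mean in OX40L-JAG1 Treg than in anti-CD3-CD28 Teff cells. Among the other genes given array by array, the changes were 0.98 ± 0.31 for Bub1 (adjusted p = 0.221), 0.88 ± 0.28 for Kif11 (adjusted p = 0.216), 0.80 ± 0.22 for Top2a (adjusted p = 0.128) and 0.63 ± 0.39 for Mki67 (adjusted p = 0.715). Ect2 changed by 1.00 ± 0.22 (adjusted p = 0.0538), whereas Ccna2 (0.03 ± 0.30) and Birc5 (0.07 ± 0.33) stood at their control level within the error.

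The count of calls in OX40L-JAG1 Treg cells depended on which arrays were fitted. When the OX40L-JAG1 Teff arrays, which are not part of this comparison, were left out, 16 genes passed, against 5.41% of all genes in either direction: Ccnb2, Melk, Foxm1, Bub1, Cenpe, Cenpf, Ndc80, Kif11, Kif18b, Kif4, Kif23, Prc1, Ect2, Cdc20, Mki67 and Top2a. The count was also 16 without either of those arrays alone, 0 without control Treg replicate B or without either OX40L-JAG1 Treg array, and 1 without any other array. By role the median change was 0.65 for anaphase genes, 0.63 for chromosome structure, 0.58 for cytokinesis, 0.54 for the kinetochore, 0.53 for spindle motors, 0.51 for mitotic entry and 0.17 for the passenger complex.

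RNA of other cell types moved with this comparison. Of 15 myeloid and dendritic cell markers, 4 were higher in OX40L-JAG1 Treg than in control Treg cells and none lower, their mean level was 5.55 to 5.76 against 4.15 to 4.30, and 8 to 10 of them lay above the lowest array median against 1 to 2. Of 10 erythroid and platelet markers, 3 were higher, at a mean level of 5.99 to 6.05 against 4.97 to 5.09. B and plasma cell markers (mean level 4.94 to 4.97 against 4.97 to 5.04) and the 9 T cell identity markers (10.42 to 10.47 against 10.41 to 10.55) had no call. The part of these other cells in the shift of mitotic genes was not tested.

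Set against each other, the cultures differed in the same direction for every mitotic gene in Treg cells. All 43 changes of anti-CD3-CD28 Treg against OX40L-JAG1 Treg cells were positive, with a median of 1.87 (3.65-fold), and 39 passed, against 4.73% of all genes that were higher. Bub1 (2.53 ± 0.31, adjusted p = 0.000564), Ccna2, cyclin A2 (2.34 ± 0.30, adjusted p = 0.000699), and Cdc25c (2.32 ± 0.23, adjusted p = 0.000149, a lower bound) differed most. The 4 genes that did not pass were Cdk1 (1.46 ± 0.47, adjusted p = 0.115), Ccnb2 (1.18 ± 0.42, adjusted p = 0.166), Cenpa (1.09 ± 0.31, adjusted p = 0.067) and Melk (0.83 ± 0.26, adjusted p = 0.109). Ccnb2 is named here after its value was seen, and all 43 passed without the OX40L-JAG1 Teff arrays, against 13.9% of all genes in either direction. Of the 15 myeloid and dendritic cell markers, 7 were lower in anti-CD3-CD28 Treg cells (mean level 4.18 to 4.22 against 5.55 to 5.76), and their part was not tested. Both comparisons with control use the same control Treg arrays, so their values are not independent.

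**Figure D3:**
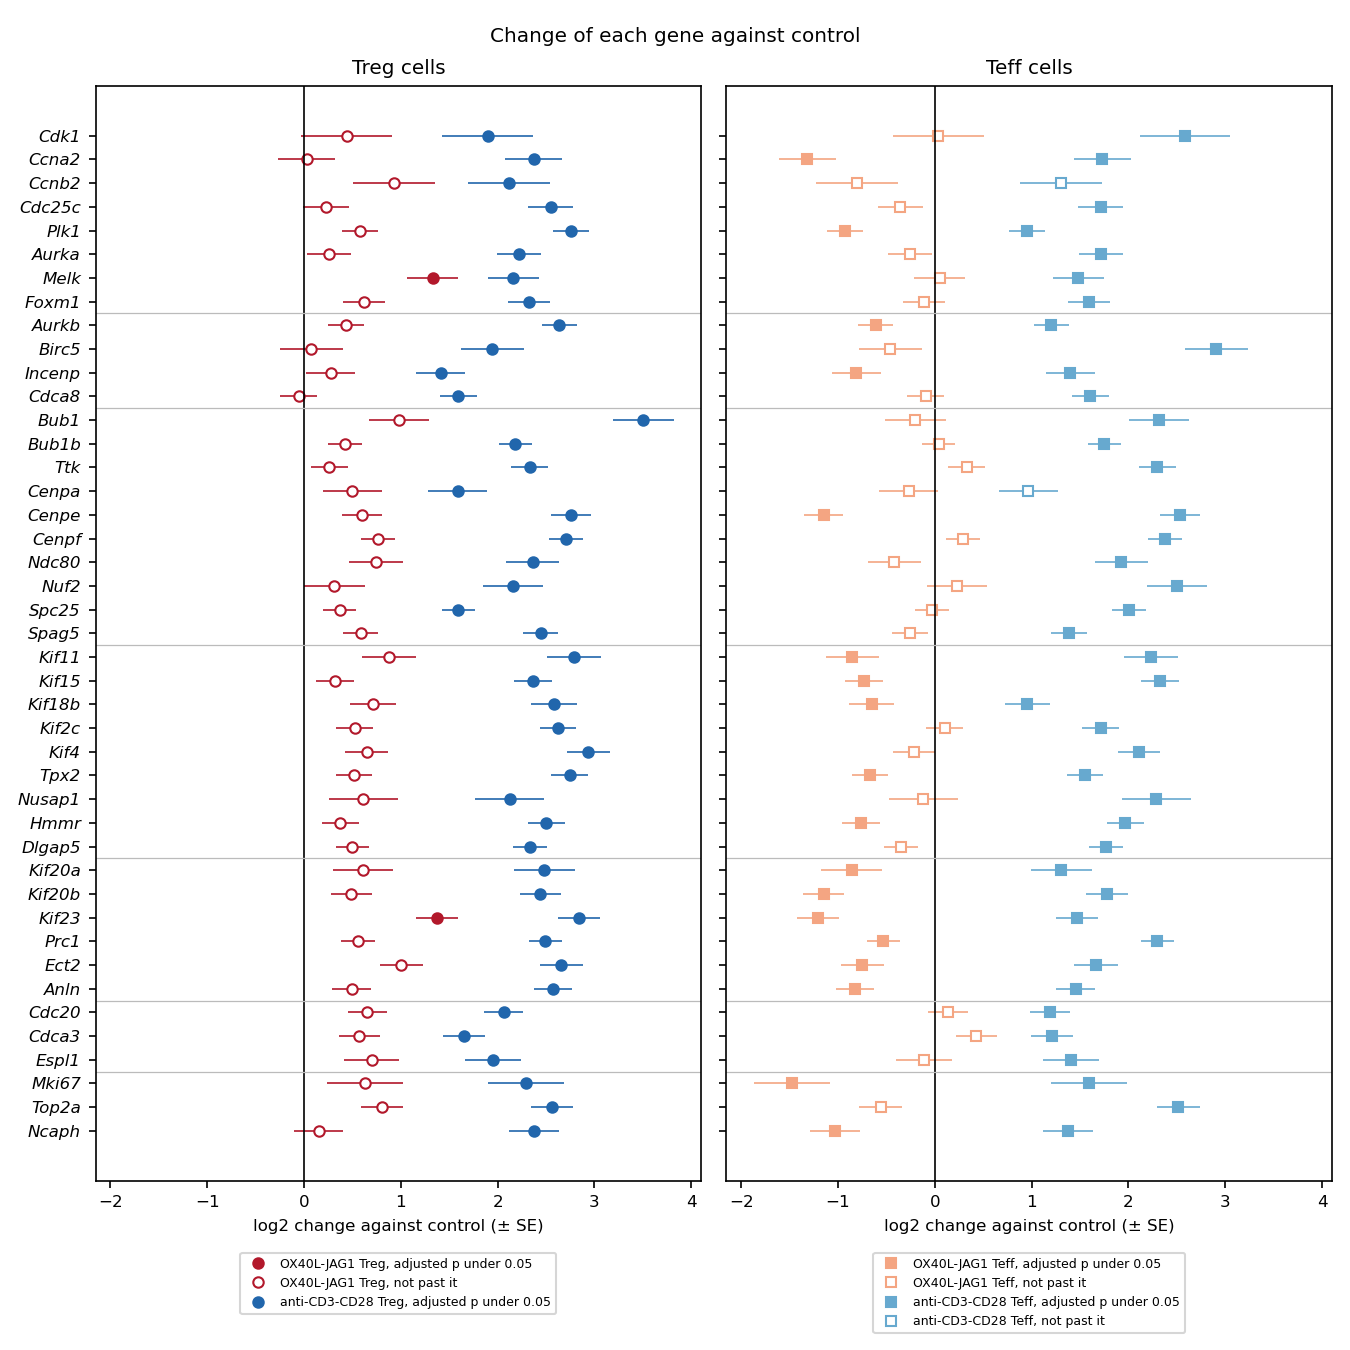
Change of each gene against control on the log2 scale with its SE, for Treg cells on the left and Teff cells on the right, with filled points where the adjusted p was under 0.05. In Treg cells the anti-CD3-CD28 points lie from 1.41 to 3.51 and the OX40L-JAG1 points from -0.06 to 1.38, and in Teff cells the OX40L-JAG1 points fall on both sides of 0 (8 of these 43 turned sign after quantile normalization).

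In OX40L-JAG1 Teff cells, 18 mitotic genes were lower past the threshold than in control Teff cells and none higher. The median over the 43 genes was -0.42, but this depended on the scaling. The median over all genes was 0.18 there, and it was -0.00 after quantile normalization. Relative to it the 43 genes had a median of -0.60 as deposited and -0.09 after quantile normalization, when 6 genes were called lower and 6 higher. In that setting 21.7% of all genes passed in either direction. Lower calls covered 26.9% of all genes, against 41.9% of the mitotic genes. With array weights, which count the noisier arrays less, 5 mitotic genes passed, against 21.1% of all genes in either direction. Past the threshold, cytokinesis genes were lower in 6 of 6 (3 of 6 after quantile normalization), and anaphase genes in 0 of 3.

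Mki67 had the largest fall, -1.47 ± 0.39 (adjusted p = 0.0108), followed by Ccna2 (-1.32 ± 0.30, adjusted p = 0.0046) and Kif23 (-1.20 ± 0.22, adjusted p = 0.00124). Of these, Kif23 alone kept its call in limma after quantile normalization (-1.24, adjusted p = 0.00273), unlike Mki67 (-0.62, adjusted p = 0.242) and Ccna2 (-0.99, adjusted p = 0.113). Cdk1 changed by 0.04 ± 0.47, a mean of replicates that lay 0.99 below and 1.06 above the control mean. Leaving out control Teff replicate B or 1 left 6 or 7 calls, and 27 passed without OX40L-JAG1 Teff replicate 1. In the same comparison 8 of 9 T cell identity markers were lower and 10 of 15 myeloid and dendritic cell markers were higher, the latter at a mean level of 6.09 to 6.70 against 4.85 to 4.86 in control Teff cells. Their part in the fall of mitotic genes was not tested. Anti-CD3-CD28 Teff cells were above OX40L-JAG1 Teff cells for all 43 genes, by a median of 2.21, against 18.9% of all genes, with Cenpe (3.68 ± 0.20, adjusted p = 2.42e-06) at the top and Cdca3 (0.78 ± 0.21, adjusted p = 0.0205) at the bottom. After quantile normalization 39 passed, against 15.7% of all genes in either direction. The others were Cdca3 (0.10, adjusted p = 0.835), Cdc20 (0.25, adjusted p = 0.314), Cenpa (0.56, adjusted p = 0.177) and Melk (1.27, adjusted p = 0.0598). Of 15 myeloid and dendritic cell markers 11 were lower in the anti-CD3-CD28 Teff cells (mean level 4.59 to 4.60 against 6.09 to 6.70), and 4 of 9 T cell identity markers were higher (10.02 to 10.03 against 8.84 to 9.52). Their part in this difference was not tested.

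Before culture, control Treg and Teff cells did not differ past the threshold in limma for any of the 43 genes, against 3.85% of all genes in either direction. At an unadjusted p under 0.05, 7 genes were higher in Treg cells and 0 lower, a count without a share of all genes at that p to compare. The median difference was 0.28 (4 of the 43 turned sign after quantile normalization). Nusap1, a microtubule bundler, differed most (0.89 ± 0.36, adjusted p = 0.228), ahead of Nuf2 (0.74 ± 0.31, adjusted p = 0.257) and Melk (0.73 ± 0.26, adjusted p = 0.176), and Espl1 was at the other end (-0.48 ± 0.29, adjusted p = 0.473). Without the OX40L-JAG1 Teff arrays 6 passed, against 14.5% of all genes in either direction: Cdk1, Melk, Birc5, Nuf2, Nusap1 and Prc1. The share of mitotic genes was then not far from the background. Markers of other cells were lower in control Treg cells: 4 of 11 for B and plasma cells, 3 of 15 for myeloid and dendritic cells, 2 of 9 for CD8 T and NK cells and 3 of 10 for erythroid cells and platelets. Their part in these differences was not tested.

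After anti-CD3-CD28, Treg cells had more mitotic RNA than Teff cells past the threshold for 20 genes and less for none, against 9.03% of all genes that were higher. The median difference was 0.84 (1.79-fold), and it was 0.46 after quantile normalization. Plk1, Aurkb and Tpx2 alone of the 43 then passed, and 5 turned sign. In that setting 1116 of the 22180 genes tested passed in either direction, so the share of mitotic genes was not far from the background. As deposited, the cytokinesis role stood out by its count, 6 of 6. Beside it were 5 of 9 spindle genes, 4 of 8 entry genes, 2 of 10 kinetochore genes and 1 gene in each other role. Plk1 differed most (1.74 ± 0.19, adjusted p = 0.000254), before Ncaph (1.43 ± 0.26, adjusted p = 0.00533) and Melk (1.41 ± 0.26, adjusted p = 0.0065). Beside these differences, 3 of 9 T cell identity markers were higher and 2 of 9 CD8 T and NK cell markers lower in anti-CD3-CD28 Treg cells, and their part was not tested. Quantile normalization turned the median of the passenger complex from 0.37 to -0.03 and kept the sign of the other role medians. The count was 35 without the OX40L-JAG1 Teff arrays (28.7% of all genes in either direction), with either one left out or both, and fell to 3 without anti-CD3-CD28 Treg replicate B or anti-CD3-CD28 Teff replicate 1 and to 5 without anti-CD3-CD28 Treg replicate 1.

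The difference between the responses, anti-CD3-CD28 minus control in Treg less the same in Teff cells, was tested as an interaction. It was positive past the threshold for 8 genes and negative for none, against 10.1% of all genes that were positive, so the share of mitotic genes, 18.6%, was not far from the background. They were Plk1 (1.81 ± 0.27, adjusted p = 0.00209), Kif18b (1.62 ± 0.33, adjusted p = 0.0103), Aurkb (1.44 ± 0.26, adjusted p = 0.00571), Kif23, Tpx2, Anln, Spag5 and Kif2c. The rise was larger in Treg cells for 37 genes and in Teff cells for 6, but for 27 and 16 after quantile normalization, when Aurkb alone passed and the median fell from 0.62 to 0.16. Birc5 (-0.96 ± 0.46, adjusted p = 0.194) and Cdk1 (-0.69 ± 0.66, adjusted p = 0.531) had the most negative differences. Over the 43 genes the Treg and Teff rises were hardly related (Pearson r 0.16, Spearman rho 0.09, across genes, which are not independent).

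The number of these calls also varied with the arrays. Without the OX40L-JAG1 Teff arrays, or either of them, 22 genes passed (20 positive and 2 negative with both left out, against 31% of all genes). Fewer passed without other arrays: 2 without control Teff replicate B, 3 without anti-CD3-CD28 Treg replicate B or anti-CD3-CD28 Teff replicate 1, and 4 without control Teff replicate 1, control Treg replicate B or anti-CD3-CD28 Treg replicate 1. Plk1 and Aurkb, whose levels are given above, were thus among genes whose call was kept when the OX40L-JAG1 Teff arrays were removed, as were all 8.

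For OX40L-JAG1, Treg cells stood above Teff cells past the threshold for 34 of the 43 genes, against 24.6% of all genes. The median over the 43 genes was 1.17, which was 1.31 relative to the median of all genes (-0.14). After quantile normalization 23 passed, against 18.1% of all genes in either direction, and 4 of the 43 turned sign. In the same comparison 6 of 9 T cell identity markers were higher in Treg cells (mean level 10.42 to 10.47 against 8.84 to 9.52) and 6 of 15 myeloid and dendritic cell markers lower (5.55 to 5.76 against 6.09 to 6.70), and their part was not tested. Mki67 differed by 2.44 ± 0.39 (adjusted p = 0.000864), Kif23 by 2.38 ± 0.22 (adjusted p = 5.75e-05) and Cenpe by 2.14 ± 0.20 (adjusted p = 6.76e-05). The interaction for OX40L-JAG1 was positive past the threshold for 24 genes, against 21.3% of all genes. Its median over the 43 genes was 1.05 (1.22 relative to all genes). Of the 43 genes, 7 passed after quantile normalization, against 10.8% of all genes in either direction. Quantile normalization turned the median of the anaphase genes negative in both comparisons.

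Kif23 led the interaction for OX40L-JAG1 (2.58 ± 0.31, adjusted p = 0.000372), and it moved up in Treg and down in Teff cells, with both calls past the threshold. Mki67 (2.10 ± 0.56, adjusted p = 0.0155) and Ect2 (1.75 ± 0.31, adjusted p = 0.00221) came next. Between 13 and 15 genes passed without control Teff replicate B (13), control Teff replicate 1 or OX40L-JAG1 Treg replicate 1 (14 each) or OX40L-JAG1 Treg replicate B (15), whereas 33 passed when OX40L-JAG1 Teff replicate 1 was removed. All of these differences involve the Teff arrays that stood apart. After quantile normalization Kif23 kept its call in the interaction (2.49, adjusted p = 0.00189 in limma). Mki67 (1.12, adjusted p = 0.186) and Ect2 (0.81, adjusted p = 0.155) did not pass there.

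**Figure D4:**
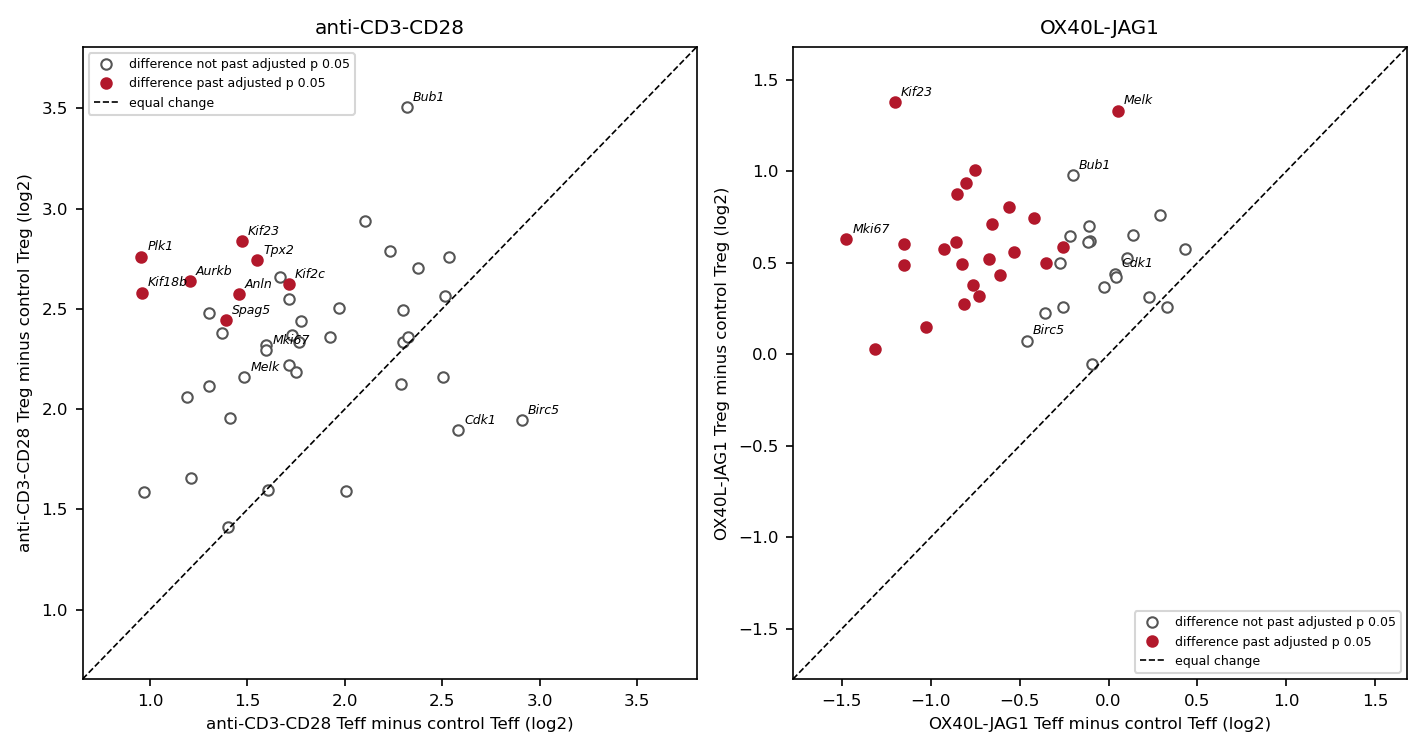
Change against control in Teff cells (horizontal axis, log2) and in Treg cells (vertical axis, log2) for each of the 43 genes, for anti-CD3-CD28 on the left and OX40L-JAG1 on the right, with the line of equal change. Most points lie above the line in both panels, 37 of 43 on the left (27 after quantile normalization), and red points mark differences past an adjusted p of 0.05, 8 on the left and 24 on the right (9 of the 43 OX40L-JAG1 differences turned sign after quantile normalization).

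Other genes of the same processes were counted from lists by function. In Treg cells, where 8.08% of all genes were higher, 20 of 30 other kinetochore and checkpoint genes were higher (median 1.37), led by Knl1, the kinetochore scaffold (2.68 ± 0.21), and 25 of 30 other spindle, motor and cytokinesis genes (median 2.02), led by Stil, a centriole assembly factor (2.87 ± 0.21). For cohesin and condensin genes the count was 10 of 18 (median 0.74), for the anaphase-promoting complex and its regulators 9 of 16 (median 0.75), for mitotic kinase and cyclin partners 7 of 12 (median 1.38) and for the DREAM, MuvB and B-Myb regulators 6 of 16 (median 0.32). None of these genes was lower past the threshold. In anti-CD3-CD28 Teff cells, where 5.44% of all genes were higher, the counts were 19 of 30, 20 of 30, 5 of 18, 2 of 16, 6 of 12 and 3 of 16 in the same order, with 1, 1, 2 and 3 genes lower among the spindle, cohesin and condensin, anaphase-promoting complex and DREAM lists.

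DNA replication genes, which act in S phase before mitosis, differed between the Treg cells of the 2 cultures. Of 19, 17 were higher in anti-CD3-CD28 Treg cells (median 1.24), with Cdc6, the licensing factor (2.17 ± 0.20), and the ribonucleotide reductase subunits Rrm2 (2.12 ± 0.31) and Rrm1 (2.00 ± 0.21) at the top, and 10 in anti-CD3-CD28 Teff cells (median 0.85). The shares of all genes that were higher were 8.08% in Treg and 5.44% in Teff cells. In OX40L-JAG1 Treg cells none of the 19 passed in either direction. Only 345 of the 22180 genes tested did so, and the lack of calls was thus not far from the background. The median was -0.20, beside 0.56 for the mitotic genes. An unadjusted p under 0.05 was seen for 2, both lower, with no share of all genes at that p to compare. Anti-CD3-CD28 Treg cells were above OX40L-JAG1 Treg cells for 17 of 19 replication genes (median 1.60), against 4.73% of all genes. Of the other mitotic lists in OX40L-JAG1 Treg cells, single genes passed: Arhgap11a, a RhoA regulator of cytokinesis (1.35 ± 0.21, adjusted p = 0.00757), Knl1 (1.04 ± 0.21, adjusted p = 0.037) and Cdc25b, a phosphatase that activates Cdk1 (1.23 ± 0.24, adjusted p = 0.0279). Among all genes tested, 0.996% were higher in OX40L-JAG1 Treg than in control Treg cells.

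**Figure D5:**
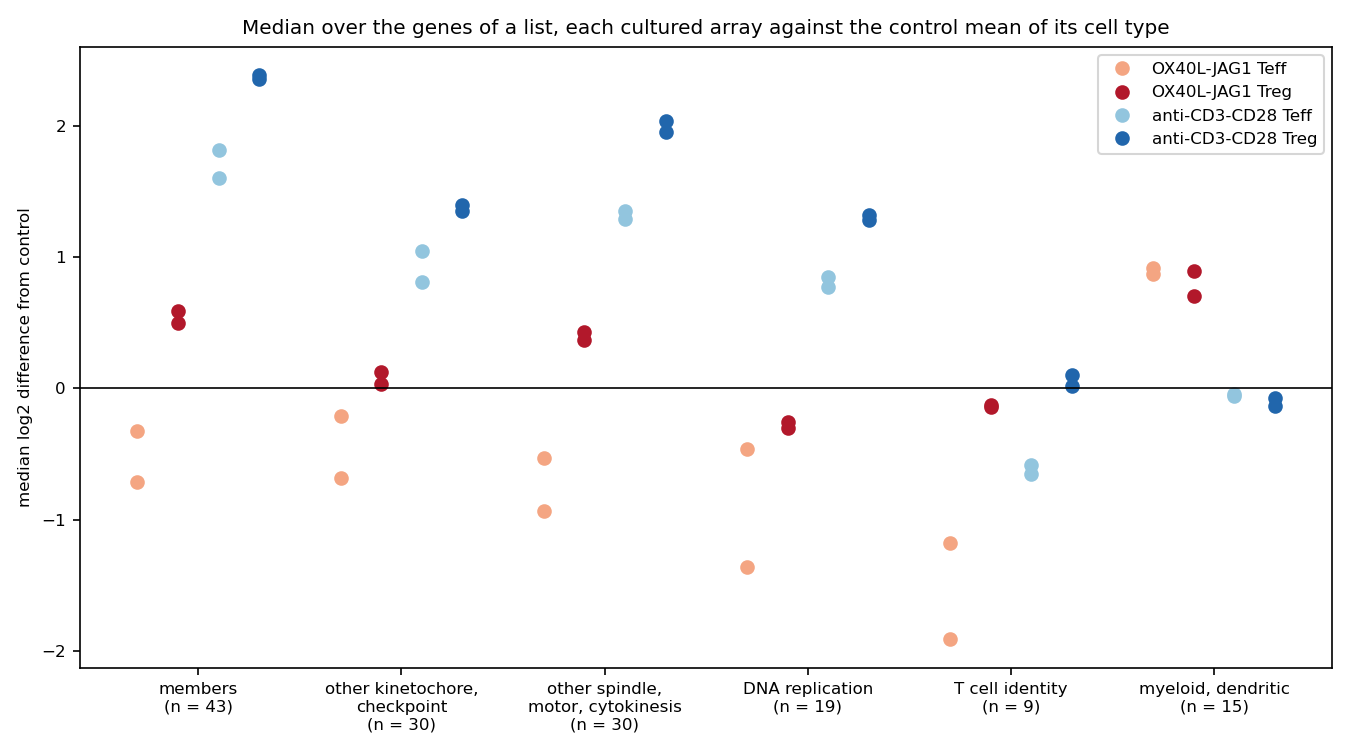
Median over the genes of a list of the log2 difference between each cultured array and the control mean of its cell type, with 2 points for each cultured group. The 43 mitotic genes reach the highest medians with anti-CD3-CD28, and in OX40L-JAG1 Treg cells the mitotic lists lie above 0 while the DNA replication genes lie below it and the myeloid and dendritic cell markers above it.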

How the data were processed

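RNA of sorted splenic CD4+ T cells was measured on 12 Affymetrix arrays, 2 in each of 6 groups. The deposited series matrix holds log2 intensities that the authors made with RMA, per the submitters' processing notes; the version and annotation are not given in the sources used here. Of 41345 rows, 23521 had 1 gene symbol, 1814 several and 16010 none. Each of 22180 genes was represented by its brightest row on average. The number of arrays limits the precision.

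Group means were fitted in limma 3.58.1 (R 4.3.3) over all 12 arrays, with 6 residual degrees of freedom, and 9 pairwise comparisons and 2 interactions were tested, two-sided, with Benjamini-Hochberg adjustment over all genes within each comparison at 0.05. The fit was tested on simulated data first. The 43 genes and the other lists were chosen with earlier results of these data known.

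Array-by-array values were given for Mki67, Top2a, Cdk1, Plk1, Aurkb, Birc5, Bub1, Kif11, Foxm1 and Cdc25c. The 3 genes with the largest and the 3 with the smallest change in each comparison could be named besides, and up to 3 called genes of each other list. Melk and Kif23 were given array by array after their values were seen.

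Same-lettered replicates were not treated as paired, as no label pairs them. Correlations of their deviations from group means ran from -0.0693 to 0.182 over 15 pairs of groups. These values cannot tell whether such replicates shared an animal or culture. Alternatives were quantile normalization, array weights, the mean of a gene's rows, fits on the compared arrays only, a trended or robust prior, leaving out dim genes, a minimum log2 change of 1 (treat), a replicate block and leaving out arrays. Motifs were searched in RefSeq promoters on both strands.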

Additional observations from a re-analysis of the deposited data

Results flagged for a closer look

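The response to OX40L-JAG1 was compared as the change against control in Treg cells minus that in Teff cells. This difference passed the threshold in limma for 24 of the 43 genes, and every such difference was positive. Positive differences past the threshold covered 21.3% of all genes. Among genes of mitotic entry the difference was 1.34 for Ccna2, 1.74 for Ccnb2, 1.50 for Plk1 and 1.28 for Melk on the log2 scale. In the passenger complex it was 1.04 for Aurkb and 1.09 for Incenp. At the kinetochore it was 1.75 for Cenpe, 1.16 for Ndc80 and 0.84 for Spag5. Among spindle genes it was 1.73 for Kif11, 1.05 for Kif15, 1.37 for Kif18b, 1.19 for Tpx2, 1.14 for Hmmr and 0.85 for Dlgap5.

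All 6 cytokinesis genes were among them, at 1.47 for Kif20a, 1.64 for Kif20b, 2.58 for Kif23, 1.09 for Prc1, 1.75 for Ect2 and 1.31 for Anln. Of chromosome structure, the values were 2.10 for Mki67, 1.36 for Top2a and 1.18 for Ncaph. For Cdc25c both Treg arrays lay above their control mean and both Teff arrays below theirs, and the difference of 0.58 did not pass (adjusted p = 0.189 in limma). All 4 Cdc25c group means in this difference lay under 4.87, so neither direction was shown to be above background. These values use the OX40L-JAG1 Teff arrays that stood apart. After quantile normalization 7 of the 43 genes passed, against 10.8% of all genes in either direction.

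The response to anti-CD3-CD28 was larger in Treg cells past the threshold for 8 genes, by 1.81 for Plk1, 1.44 for Aurkb, 1.06 for Spag5, 1.62 for Kif18b, 0.91 for Kif2c, 1.19 for Tpx2, 1.37 for Kif23 and 1.12 for Anln. Positive differences past the threshold covered 10.1% of all genes here, so the share of mitotic genes was not far from the background. After quantile normalization Aurkb alone of the 43 genes passed, against 1071 of the 22180 genes tested in either direction.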

How the results depend on the processing

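Counts of mitotic genes past the threshold changed as follows. For OX40L-JAG1 Treg against control (2), they were 4 without dim genes, 1 after quantile normalization, 11 with array weights, 7 with the 4 compared arrays alone, 16 without the OX40L-JAG1 Teff arrays and 0 with treat. OX40L-JAG1 Teff against control (18) gave 5 with weights, 1 with 4 arrays and 0 with treat. OX40L-JAG1 Treg against Teff (34) gave 22, 9 and 3, and control Treg against Teff (0) gave 8 with weights, 5 with 4 arrays and 6 without the OX40L-JAG1 Teff arrays. Anti-CD3-CD28 Treg against Teff (20) gave 3 after quantile normalization, 34 with weights, 35 without the OX40L-JAG1 Teff arrays and 0 with treat. The OX40L-JAG1 interaction (24) gave 7 after quantile normalization, 15 with its own arrays and 1 with treat, and the anti-CD3-CD28 interaction (8) gave 1, 21 and 0, with 21 under weights and 22 when the OX40L-JAG1 Teff arrays were dropped. Under treat, 16 passed against 39 for anti-CD3-CD28 against OX40L-JAG1 Treg, 14 against 41 for anti-CD3-CD28 Teff against control and 27 against 43 for anti-CD3-CD28 against OX40L-JAG1 Teff, where 4 arrays gave 28. Over all genes, quantile normalization gave 4823 (OX40L-JAG1 Teff against control), 3476 (anti-CD3-CD28 against OX40L-JAG1 Teff), 4013 (OX40L-JAG1 Treg against Teff), 1116 (anti-CD3-CD28 Treg against Teff), and 2391 and 1071 (the OX40L-JAG1 and anti-CD3-CD28 interactions). In the order weights, compared arrays alone, without the OX40L-JAG1 Teff arrays and treat, all-gene counts were 1010, 771, 1200 and 22 for OX40L-JAG1 Treg against control, 5450, 4705, 4770 and 344 for anti-CD3-CD28 Treg against control, 3435, 2771, 3082 and 136 for anti-CD3-CD28 against OX40L-JAG1 Treg, 6431, 5638, 6421 and 299 for anti-CD3-CD28 Teff against control, 4167, 3115, 3220 and 90 for control Treg against Teff, 6113, 5131, 6362 and 139 for anti-CD3-CD28 Treg against Teff, and 7344, 7022, 6869 and 161 for its interaction. With weights, compared arrays alone and treat they were 4688, 3524 and 839 for OX40L-JAG1 Teff against control, 1427, 363 and 321 for anti-CD3-CD28 against OX40L-JAG1 Teff and 3137, 1079 and 392 for OX40L-JAG1 Treg against Teff, and treat gave 562 for the OX40L-JAG1 interaction. Quantile normalization turned the sign of Top2a (0.41) and Aurkb (0.040) in OX40L-JAG1 Teff against control, Plk1 (0.070) in control Treg against Teff, Cdk1 (-0.087) in the OX40L-JAG1 interaction and Top2a (-0.34) in the anti-CD3-CD28 interaction.

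Leaving out 1 array gave 6 to 27 mitotic genes and 6129 to 13691 of all genes for OX40L-JAG1 Teff against control, 29 to 40 and 5043 to 12824 for OX40L-JAG1 Treg against Teff, 0 to 16 and 99 to 1200 for OX40L-JAG1 Treg against control, 13 to 33 and 4142 to 12172 for the OX40L-JAG1 interaction, 41 to 43 and 2666 to 10906 for anti-CD3-CD28 against OX40L-JAG1 Teff, 35 to 43 and 1425 to 6421 for anti-CD3-CD28 Teff against control, 32 to 43 and 595 to 3082 for anti-CD3-CD28 against OX40L-JAG1 Treg, 3 to 35 and 688 to 6362 for anti-CD3-CD28 Treg against Teff, 40 to 43 and 1054 to 4770 for anti-CD3-CD28 Treg against control, 2 to 22 and 971 to 6869 for the anti-CD3-CD28 interaction, and 0 to 6 and 248 to 3220 for control Treg against Teff. Signs turned for OX40L-JAG1 Teff against control at Birc5 (-1.07 to 0.15), Bub1 (-0.58 to 0.18), Cdk1 (-0.99 to 1.06) and Foxm1 (-0.41 to 0.20), for OX40L-JAG1 Treg against Teff at Cdk1 (-0.020 to 2.03), for the OX40L-JAG1 interaction at Birc5 (-0.076 to 1.14) and Cdk1 (-0.62 to 1.43), for the anti-CD3-CD28 interaction at Top2a (-0.063 to 0.16) and for control Treg against Teff at Bub1 (-0.72 to 0.19). The cause of these changes was not tested. With the replicate number as a block, OX40L-JAG1 Treg against control gave 306 of all genes against 345 without it, and no count moved by over 1.5 times. Of 2270 values of the genes given array by array under all alternatives, 2030 kept direction and side of the threshold, 119 lost the call, 105 gained it and 16 turned sign.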
